A study of Arachis hypogaea with 15 samples.

Results

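The transcriptomes of the shoot apex were compared between a peanut (Arachis hypogaea) mutant with pentafoliate leaf defects and the wild type. The members are the 3 mutant apex libraries and the 3 wild-type apex libraries, 6 of the 15 libraries of the series, taken by their labelled genotype and tissue. The other 9 libraries are wild-type petiole, terminal leaflet and lateral leaflet, with 3 each. All plants were 40 days old and were grown in soil in a chamber with 16 h of light and 8 h of darkness, at 22 °C and 70% relative humidity. The labels name no gene, allele or parental line for the mutant, so its genetic background and any difference in sampling cannot be told apart from the leaf mutation. The series describes the 3 libraries of a group as biological replicates.

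Cultivated peanut is an allotetraploid legume whose leaves normally carry paired leaflets, and its A and B subgenomes hold a near-complete second copy of most genes. The shoot apex contains the meristem, which keeps dividing cells in an undifferentiated state, together with leaf primordia and young vascular strands. Sugar import, nitrogen supply, hormone signals and wall loosening all feed growth in this tissue, while stress and abscisic acid signals are known to slow it.

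The file lists 59878 genes, and 39031 reached at least 1 FPKM (fragments per kilobase of transcript, scaled to the mapped fragments of each library) in at least 3 of the 15 libraries and were tested. The steps between low values correspond to an estimated 17400000 to 18200000 fragments in the 6 apex libraries. At 20 FPKM or more, the median coefficient of variation between replicates was 3.39% in the mutant and 3.99% in the wild-type apex. The labelled tissue held its markers: the 34 listed meristem genes summed to 191 to 201 FPKM in the wild-type and 297 to 300 FPKM in the mutant apex libraries, against 10.2 to 16.0 FPKM in petiole and leaflet libraries. In bulk tissue, fewer cells of a type and less RNA per cell cannot be told apart. Wild-type replicate 3 was under both other wild-type libraries by at least 1.25 times for 32 of 5479 genes, against 12 to 14 genes for the other two, and the extensin genes described further on are among those it touches. The file also repeats some loci under a second name with identical values, which held for 988 of the tested entries.

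In the mutant apex 2 ATHB-12 genes, several NAC genes, proteinase inhibitors, extensins and the sugar exporter SWEET12 were lower. So were most genes of delta-1-pyrroline-5-carboxylate synthase, a proline synthesis enzyme. Higher levels were found for proline dehydrogenases, SWEET3, a sucrose synthase and 2 vacuolar-processing enzyme genes. Many WAT1-related transporters, expansins and pectin-cutting enzymes were higher as well. A gene was called when the adjusted p of a limma fit on log2(FPKM + 1), adjusted by Benjamini-Hochberg over all tested genes, was under 0.05. By this rule 13876 genes (35.6%) differed, of which 9243 (23.7% of those tested) were higher and 4633 (11.9%) lower in the mutant. Counts of calls in the gene lists below are to be read against these shares. Under quantile normalization the split was 6889 higher against 6112 lower, and under median-ratio scaling it turned to 5563 against 7066. Most called changes were small, with 82.6% of them under 1.5-fold on that log scale. By at least 2-fold on that scale, 246 genes were higher (0.63%) and 425 lower (1.09%), and later counts at 2-fold use the same scale. With segments of chromosomes 5 and 17 included, 133 genes were down and 7 up by at least 4-fold. The chromosome 5 segment, with a median log2 change of -2.01, held 106 of the 425 and many of the 4-fold falls. Counts at 4-fold were not made without the segments.

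**Figure D1:**
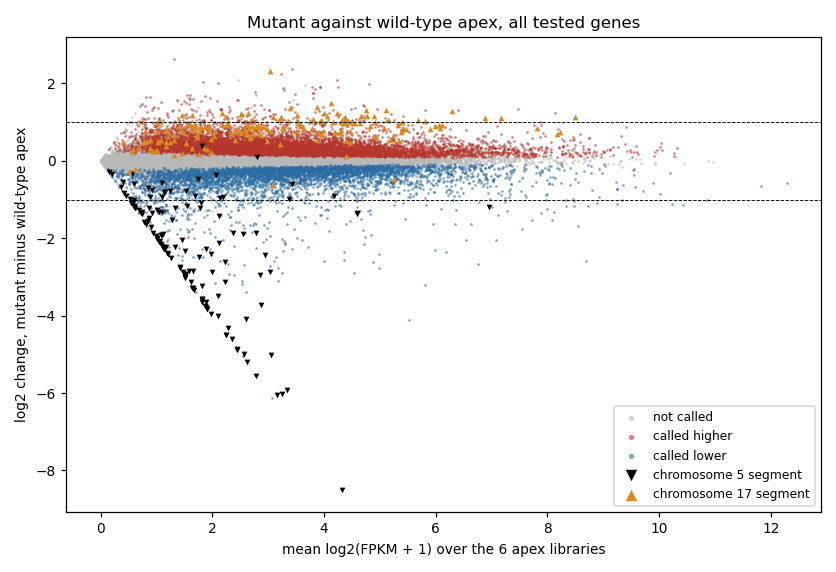
Each point is 1 tested gene, with the mean log2(FPKM + 1) of the 6 apex libraries on the horizontal axis and the log2 change, mutant minus wild type, on the vertical axis, and dashed lines mark 2-fold. The 134 tested genes of the chromosome 5 segment fill most of the deepest falls. The 189 of the chromosome 17 segment lie mostly in a band above 0 around a median of 0.85, with 2 called lower.

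Chromosome 5 from 113789406 to 115884540 and chromosome 17 from 628310 to 3239506, in the coordinates of the deposited peanut gene table, behave as blocks and are therefore given apart. Of the 134 genes tested in the chromosome 5 segment 129 were lower and 1 higher, with a median log2 change of -2.01. Of the 189 tested in the chromosome 17 segment 170 were higher and 2 lower, with a median of 0.85. Without both segments 38708 genes remained, of which 9072 (23.4%) were called higher and 4502 (11.6%) lower, while 193 (0.499%) and 319 (0.824%) changed at least 2-fold up and down. On each of the 20 chromosomes the median change outside the segments was between 0.05 and 0.09 on the log2 scale, close to the 0.07 of all genes. The share of genes 2-fold lower was highest on chromosome 9, at 1.57%, and lowest on chromosome 4, at 0.44%.

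The second subgenome copy offered a view of the 2 segments that the segment rule did not use. Pairs were formed from gene products with exactly 1 tested gene on a chromosome of the A set and 1 on its B counterpart. In 58 such pairs with the A copy inside the chromosome 5 segment, the chromosome 15 copy changed by a median log2 of 0.05, with quartiles of -0.11 and 0.16, and 11 of these copies were called higher and 9 lower. In the 48 pairs whose chromosome 5 copy reached 2 FPKM in wild-type apex, the mutant kept a median of 0.458% of that copy's wild-type level, 103% of its chromosome 15 partner and 55.9% of the sum of both.

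Glutathione reductase, a redox enzyme of the cytosol, is an example, picked after its values were seen, of this pattern within 1 pair. The chromosome 5 copy (arahy.GM7FG5.1) went from 36.3 to 0.0167 FPKM and the chromosome 15 copy (arahy.K53WYZ.1) from 34.6 to 41.6 FPKM, a log2 change of 0.26 (adjusted p = 0.00102). For the Sm-like RNA-processing protein LSM3A the means were 46.9 and 0 FPKM on chromosome 5 and 43.9 and 45.3 FPKM on chromosome 15, and the latter copy was not called (adjusted p = 0.754). Among other strong losers the chromosome 15 copies went both ways. For Ran-binding protein 1 homolog b the chromosome 5 copy went from 71.9 to 0.1 FPKM and the chromosome 15 copy from 84.0 to 103 FPKM. For chlorophyll a-b binding protein 6A the changes were from 78.2 to 0.32 FPKM and from 59.8 to 88.5 FPKM. In 2 further pairs the chromosome 15 copy fell as well. Cellulose synthase-like G2, a Golgi glycosyltransferase relative, went from 379 to 0.0433 FPKM on chromosome 5 and from 176 to 89.0 FPKM on chromosome 15. The water channel aquaporin PIP2-1 went from 75.6 to 0.183 FPKM and from 55.5 to 24.6 FPKM respectively. How far reads were exchanged between such close copies was not tested.

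In the chromosome 17 segment, 57 pairs gave a median log2 change of 0.93 for the segment copy and 0.09 for the chromosome 7 copy, of which 14 were called higher and 7 lower. In the 45 pairs whose segment copy reached 2 FPKM in wild-type apex, that copy stood at a median of 210% of wild type, the partner at 107% and the sum of both at 164%. The transcription factor subunit NF-YB3, for example, rose from 9.41 to 28.5 FPKM on chromosome 17 (adjusted p = 7.53e-07), whereas its chromosome 7 copy went from 11.2 to 14.6 FPKM and was not called (adjusted p = 0.0835). The chloroplast ribosomal protein S10 rose from 20.7 ± 0.202 to 53.4 ± 2.22 FPKM (mean ± SD, n = 3, as for every such pair of values) in the segment, and from 18.1 to 22.6 FPKM on chromosome 7.

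Outside the segments the copies were seldom called in opposite directions, although pairs with a call in 1 copy were more frequent than pairs with a call in both. Of 7202 pairs, 1121 had both copies called higher, 529 had both called lower and 38 were called in opposite directions, while 2151 had 1 copy called and 3363 neither. Across pairs the log2 changes of the copies correlated with a Pearson r of 0.74, as a description, since the copies share the 6 libraries and near-identical copies may share reads. In 112 pairs at least 1 copy was called and changed at least 2-fold, and in 98 of them the other copy was called in the same direction, in 2 in the opposite direction and in 12 not at all.

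**Figure D2:**
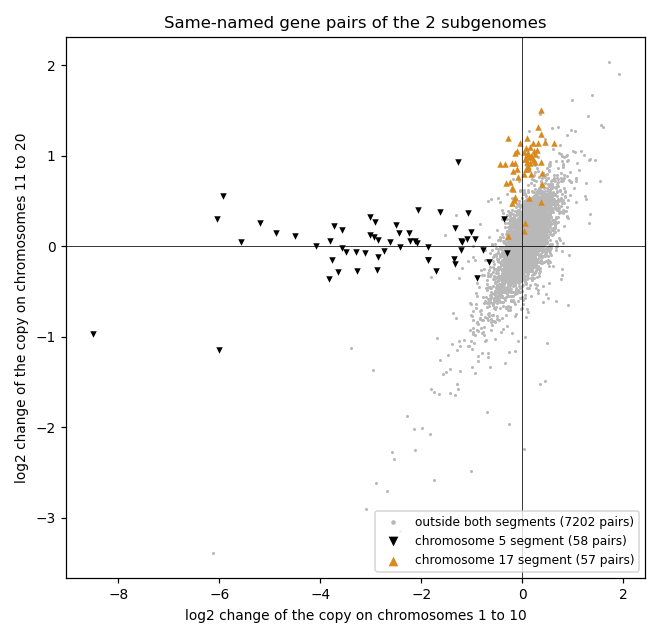
Each point is a pair of same-named genes, with the log2 change of the copy on chromosomes 1 to 10 on the horizontal axis and that of its counterpart on chromosomes 11 to 20 on the vertical axis. The 7202 pairs outside the segments follow the diagonal (r = 0.74), and the 58 pairs of the chromosome 5 segment spread along the horizontal axis with partners at a median of 0.05. The 57 pairs of the chromosome 17 segment lie above 0 on the vertical axis, with partners on both sides of 0 at a median of 0.09.

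Among regulators, the deepest falls of the HD-ZIP list were at 2 genes for ATHB-12, a homeodomain leucine zipper factor that in Arabidopsis is induced by drought and abscisic acid and restrains stem growth. The other 3 tested genes of the ATHB-12 and ATHB-7 group were not called lower: arahy.B53UZQ.1 rose from 2.93 ± 0.166 to 4.60 ± 0.182 FPKM and 2 were not called, so that the median log2 change of the 5 was 0.01. The ATHB-12-like gene on chromosome 2 (arahy.RF7AVT.2, 4564783 to 4566392) read 25.90, 23.56 and 27.38 FPKM in the wild-type libraries and 2.61, 2.23 and 1.52 FPKM in the mutant libraries. The groups lay far apart, a 12.1-fold difference of means (log2 change -3.11 ± 0.11 SE, adjusted p = 4.55e-11). Its chromosome 12 counterpart (arahy.LXJ7K2.1) fell from 25.1 ± 1.25 to 2.52 ± 0.681 FPKM (adjusted p = 3.76e-10). In wild-type petiole and leaflets both genes stood between 0.27 and 1.13 FPKM, so the mutant apex lay nearer to those tissues than to the wild-type apex. Of 80 tested HD-ZIP genes 22 were higher and 24 lower, with a median log2 of -0.06 against 0.07 for all genes. All 5 that were called and changed at least 2-fold on the log2(FPKM + 1) scale fell.

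NAC factors, a plant-specific family with roles in stress, senescence and organ boundaries, split by member. Of 63 tested genes 24 were higher (38.1%, against 23.7% of all tested genes) and 11 lower (17.5%, against 11.9%). On the log2(FPKM + 1) scale all 7 called changes of at least 2-fold were falls, with no segment member among them. Of all tested genes 1.09% fell and 0.63% rose by that measure. NAC domain-containing protein 2-like (arahy.BFU0GS.1) gave 26.43, 29.13 and 26.75 FPKM in the wild type and 4.09, 5.44 and 5.75 FPKM in the mutant (log2 -2.23 ± 0.088 SE, adjusted p = 1.03e-10). A further NAC2 gene on chromosome 18 (arahy.2FYA1K.1) read 4.78, 3.90 and 4.05 FPKM in the wild type and was listed at 0 in the 3 mutant libraries. NAC72-like (arahy.FU1JML.2), whose Arabidopsis relative answers to dehydration, fell from 3.09 ± 0.0833 to 0.517 ± 0.146 FPKM. Rises in this family were smaller on that scale, which understates the changes of low genes. NAC73-like (arahy.24LKGZ.2) and NAC75-like (arahy.G3FV2L.2), relatives of secondary-wall regulators, rose from 2.49 to 5.32 FPKM and from 2.71 to 5.56 FPKM.

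Some small families linked to abscisic acid fell, while the fixed list of abscisic acid genes had no lean. The E3 ligase XERICO, which in Arabidopsis raises abscisic acid levels, has 5 tested genes here, of which 3 fell and 2 were not called. The leading copy on chromosome 20 (arahy.5WW9LS.1) read 19.92, 19.50 and 20.04 FPKM in the wild type and 2.21, 1.80 and 2.61 FPKM in the mutant, an 8.98-fold difference. The 6 tested genes for protein phosphatases 2C of types 51 and 37, negative regulators of abscisic acid signalling that are themselves induced by the hormone in Arabidopsis, all fell, with log2 changes of -2.16 to -1.05. Phosphatase 2C 51-like (arahy.WG90F5.1) went from 54.4 ± 1.98 to 11.4 ± 0.691 FPKM (adjusted p = 6.13e-09), and stood at 0.97 to 2.66 FPKM in wild-type petiole and leaflets. Of 6 ninja-family genes, whose AFP members repress abscisic acid responses, 4 fell and 2 were not called, and AFP3 (arahy.F7JNQF.1) read 13.52, 13.71 and 14.74 FPKM against 2.52, 1.72 and 2.27 FPKM. These small groups were picked after their values were seen, and the counts of calls were the same under quantile and median-ratio scaling. The list of abscisic acid metabolism and signalling genes proper, which holds synthesis enzymes, receptors and response factors, did not move in 1 direction: 9 of 48 tested genes were higher and 9 lower, at a median log2 of 0.05, and 6 against 10 under median-ratio scaling. Within it the receptor PYL9 (arahy.QQU7J2.1) fell from 16.5 to 11.6 FPKM and zeaxanthin epoxidase (arahy.5ITW1B.1), an early step of abscisic acid synthesis, rose from 5.17 to 7.83 FPKM.

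Regulators that rose came from several families. The bHLH162-like gene (arahy.CV46MP.1), of unstated function, read 8.12, 9.57 and 8.67 FPKM in the wild type and 37.42, 35.44 and 34.25 FPKM in the mutant (log2 1.91 ± 0.07 SE, adjusted p = 4.86e-11). WRKY70 on chromosome 4, a defence regulator in Arabidopsis, read 3.57, 3.74 and 3.04 FPKM against 10.34, 10.60 and 12.16 FPKM. No library of 1 group reached the other for either gene, as was also the case for 13310 of all tested genes with a call (34.1%). Dof factors DOF2.2 (arahy.ZL8RP9.1) and DOF4.6-like (arahy.2AYT2S.1) rose from 8.29 ± 1.59 to 21.2 ± 1.80 FPKM and from 3.54 ± 0.471 to 7.66 ± 0.362 FPKM, whereas cyclic dof factor 2 (arahy.Q28BRX.1), a repressor of flowering genes in Arabidopsis, fell from 4.81 ± 0.166 to 1.41 ± 0.02 FPKM. The bZIP list leaned upward under each scaling tried, with 23 genes higher and 5 lower of 63, and was led by bZIP11-like (arahy.76FTKD.1), a sugar-responsive factor in Arabidopsis, at 10.2 ± 1.61 against 25.4 ± 1.16 FPKM. MYB61-like on chromosome 6 (arahy.H7T4NQ.1) rose from 20.9 ± 0.701 to 42.7 ± 0.876 FPKM, and its chromosome 16 copy (arahy.44B081.1) from 7.41 ± 0.605 to 12.4 ± 0.456 FPKM. Both copies were at 0.0567 to 1.19 FPKM in petiole and leaflets. The MYB list as a whole had 24 genes higher and 19 lower of 130, a split that turned to 13 against 25 under median-ratio scaling.

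A cell-cycle and a flowering regulator also moved. A gene for the cyclin-dependent kinase inhibitor SMR5 (arahy.JA3FRH.1), which restrains the cell cycle in stressed Arabidopsis cells, fell from 12.7 ± 1.07 to 0.863 ± 0.649 FPKM (adjusted p = 3.69e-07). Of the related SMR9 genes, the copy in the chromosome 17 segment rose from 3.71 to 7.01 FPKM and the chromosome 7 copy was not called. Among dividing-cell markers 27 of 33 (81.8%, against 23.7% of all tested genes) were higher and none lower, and 19 against 1 under median-ratio scaling. They summed to 724 to 733 FPKM in the wild-type and 861 to 880 FPKM in the mutant apex libraries. Sums in wild-type petiole (817 to 839 FPKM) and leaflets (1060 to 1240 FPKM) were also above the wild-type apex. Any link to SMR5 was not tested. The florigen-type gene TWIN SISTER of FT-like (arahy.MKP2FL.1) read 7.35, 6.41 and 6.20 FPKM in the wild type and 25.45, 23.55 and 24.78 FPKM in the mutant, a 3.7-fold difference (adjusted p = 9.44e-10). Its locus is listed under a second name with the same values. Genes of the morning clock regulator LHY fell too, in 5 of 5 tested cases with log2 changes of -2.15 to -0.43. The hour of sampling is not among the labels, and its part in these differences was not tested.

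**Figure D3:**
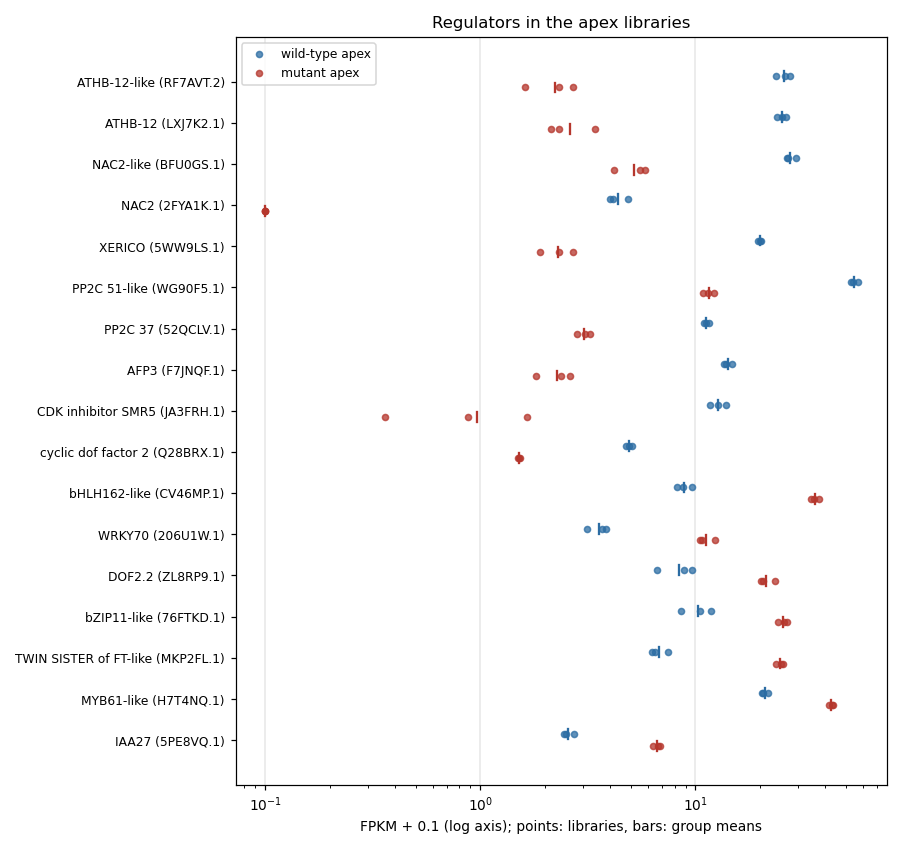
FPKM plus 0.1 in each apex library on a log axis for 17 regulator genes, with points for single libraries and short bars for the group means (n = 3). The wild-type and mutant libraries do not overlap for any gene shown. Lack of overlap was a condition for genes named by rule, and 34.1% of all tested genes were called without overlap. The mutant points of NAC2 lie at the left edge because that gene was listed at 0.

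The remaining regulator lists differed in how they leaned. GRAS factors, which include DELLA and SCARECROW proteins, had 4 genes higher and 12 lower of 36, with a DELLA gene GAI1-like (arahy.R8ZZ7K.1) falling from 6.01 to 3.50 FPKM and SCARECROW-like (arahy.VUGA5D.1), a radial-patterning factor, from 33.3 to 21.1 FPKM. AP2/ERF factors had 21 higher and 29 lower of 108, among them ERF9 on the lower side (arahy.HGAZ7D.1), from 61.2 ± 2.91 to 28.4 ± 0.824 FPKM. Leucine-rich repeat receptor kinases had 75 higher and 25 lower of 262, and bHLH factors 48 and 20 of 157. These are 28.6% and 9.54% of the receptor kinases and 30.6% and 12.7% of the bHLH factors, not far from the 23.7% and 11.9% of all tested genes, and median-ratio scaling left 50 against 41 and 38 against 23. In contrast, E3 ligases and F-box proteins (150 higher and 110 lower of 1060) and chromatin regulators (51 and 34 of 253) turned under median-ratio scaling to 84 against 192 and 30 against 55. The calcium sensor kinase CIPK5 (arahy.R30FAJ.1) rose from 16.7 ± 1.23 to 38.4 ± 0.733 FPKM.

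Hormone lists other than abscisic acid showed modest changes. Aux/IAA proteins and auxin response factors had 39 genes higher and 18 lower of 105 (37.1% and 17.1%, against 23.7% and 11.9% of all tested genes). IAA27 (arahy.5PE8VQ.1), a repressor of auxin responses, rose from 2.45 ± 0.146 to 6.51 ± 0.248 FPKM. In the same list IAA33-like (arahy.1E3WXN.1) fell from 25.7 ± 3.01 to 11.9 ± 0.951 FPKM. The auxin influx carrier gene auxin transporter-like 2 (arahy.B2YEC9.1) rose from 4.84 to 9.46 FPKM, and its relative 5 (arahy.RGXR1X.1) fell by 0.55 on the log2 scale. Ethylene synthesis and signalling genes leaned downward, with 5 higher and 15 lower of 54, among them the master regulator EIN3-like 1 (arahy.S7XF8N.1), from 102 ± 1.18 to 72.0 ± 2.71 FPKM. Gibberellin genes had 15 higher and 8 lower of 50, and 14 against 11 under median-ratio scaling. These 30.0% and 16.0% lie near the 23.7% and 11.9% of all tested genes. The synthesis enzyme gibberellin 20 oxidase 1-like on chromosome 5, outside the segment, rose from 4.14 to 7.94 FPKM.

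Sugar transporters changed in opposite directions by member. SWEET12 genes encode exporters that load sucrose toward the phloem in Arabidopsis. The chromosome 18 copy (arahy.9TLR89.1, 134237013 to 134239717) read 11.38, 11.90 and 10.66 FPKM in the wild type and 0.24, 0.58 and 0.36 FPKM in the mutant, a 28.8-fold difference (adjusted p = 8.61e-13). The second copy (arahy.DV46W1.1) went from 5.08 ± 0.321 to 0.137 ± 0.127 FPKM. In terminal leaflets the chromosome 18 copy stood at 10.1 FPKM, close to its wild-type apex level. SWEET3 genes did the opposite. SWEET3-like on chromosome 16 (arahy.7NL1KT.2) read 16.30, 15.45 and 12.81 FPKM in the wild type and 41.51, 42.11 and 41.50 FPKM in the mutant, and SWEET3 (arahy.FUEI9J.1) rose from 10.4 ± 0.839 to 27.1 ± 1.30 FPKM. Of 15 tested SWEET genes 7 were higher, 5 lower and 3 not called, with 5 in each direction under median-ratio scaling. The proton-coupled sucrose carrier SUC1 (arahy.DN7S30.1) rose from 3.60 ± 0.102 to 8.55 ± 0.364 FPKM, and inositol transporter 1 (arahy.YS4IQ1.1) fell from 2.80 ± 0.148 to 0.327 ± 0.0896 FPKM. Over the list of 98 sugar transporters 29 were higher and 21 lower, which turned to 21 against 27 under median-ratio scaling.

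The amino acid transporter list, which by its annotation also takes in the WAT1-related family (vacuolar and membrane carriers, 1 of which exports auxin from the vacuole in Arabidopsis), had 61 genes higher and 25 lower of 176. These are 34.7% and 14.2%, against 23.7% and 11.9% of all tested genes, and median-ratio scaling gave 45 against 32. The list was not counted without the WAT1-related family, so no lean of the amino acid transporters proper is given. WAT1-related At4g08300 (arahy.AT5BZQ.1) read 4.54, 4.03 and 3.55 FPKM in the wild type and 18.39, 17.31 and 16.73 FPKM in the mutant (adjusted p = 1.63e-09). Over the WAT1-related family, chosen after its values were seen, 31 of 64 tested genes were higher and 4 lower, at a median log2 of 0.35. At least 2-fold, 9 were higher and 1 lower, against 0.63% and 1.09% of all tested genes. The 64 include 1 gene of a segment and 3 second entries of a locus. The vacuolar amino acid transporter 1 gene (arahy.N0MV1J.1) went the other way, from 9.84 ± 0.257 to 2.29 ± 0.355 FPKM.

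Mineral and water transport also moved at single genes. The metal-nicotianamine carrier YSL3 (arahy.HMP3A6.5), which moves iron and copper chelates, rose from 14.2 ± 0.266 to 28.4 ± 1.79 FPKM. Sulfate transporter 2.1, a vascular carrier in Arabidopsis, rose at 2 entries, from 0.803 to 2.32 FPKM (arahy.NT37WY.1) and by a log2 change of 1.06 (arahy.F28688.1). The tonoplast aquaporin TIP2-1 (arahy.E05UEM.1) rose from 219 ± 7.74 to 387 ± 8.22 FPKM, and the aquaporin TIP1-3-like gene (arahy.BP2DBN.1) fell from 3.72 ± 0.542 to 1.30 ± 0.207 FPKM. Over the 39 tested aquaporins 14 were higher and 8 lower, none was 2-fold higher and 3 were 2-fold lower (2 outside the segments), and the split turned to 7 against 10 under median-ratio scaling. An aluminum-activated malate transporter 2-like gene (arahy.BZR2FF.1) rose from 0.543 ± 0.0603 to 2.87 ± 0.20 FPKM. Proton pumps, which energise these carriers, had 32 genes higher and 9 lower of 78 and kept more higher calls under each scaling, with plasma membrane ATPase 4 (arahy.66S7FV.1) at 9.90 ± 0.376 against 17.5 ± 0.657 FPKM. ABC transporters (32 higher and 31 lower of 191) and metal transporters (45 and 28 of 157) had no stable lean, since median-ratio scaling gave 13 against 50 and 36 against 37.

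Copper handling genes moved in both directions. Copper transport protein ATX1, a chaperone that carries copper in the cytosol, was higher at 2 of 5 tested genes and not called at 3. The chromosome 12 gene (arahy.EE5UNB.1) read 180.90, 180.11 and 186.70 FPKM in the wild type and 437.31, 415.55 and 433.29 FPKM in the mutant, and arahy.RLCT0M.1 rose from 497 ± 16.9 to 919 ± 39.2 FPKM. Copper-zinc superoxide dismutases, which use copper to remove superoxide, fell at 5 of 10 tested genes and rose at none. The leading gene (arahy.CHB81T.1) read 146.33, 145.95 and 136.61 FPKM against 49.92, 43.75 and 41.99 FPKM, a 3.16-fold difference (adjusted p = 8.95e-11). Both families were picked after their values were seen.

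In sucrose and starch metabolism, single genes of sucrose cleavage rose and single genes of starch synthesis fell. A sucrose synthase (arahy.4VZ14Z.1) read 100.52, 97.53 and 100.66 FPKM in the wild type and 184.89, 185.96 and 186.70 FPKM in the mutant (adjusted p = 8.11e-12). An acid invertase-like gene (arahy.YS5S6S.1), of the enzymes that split sucrose into hexoses, rose from 6.17 ± 0.685 to 16.3 ± 0.452 FPKM. Of 5 tested acid invertase genes, counted after their values were seen, 2 were higher and 3 not called, at a median log2 of -0.05. The list of sucrose and trehalose genes had 26 higher and 7 lower of 74, and the lean stayed upward under each scaling. In the starch list 20 genes were higher and 25 lower of 75. A large subunit of ADP-glucose pyrophosphorylase (arahy.L6ZHES.3), which makes the glucose donor for starch, fell from 19.3 ± 2.16 to 5.01 ± 0.538 FPKM, and starch branching enzyme 1 (arahy.M043T1.2) from 45.1 ± 1.11 to 24.4 ± 0.913 FPKM. A small subunit gene of the former enzyme in the chromosome 17 segment (arahy.IMCH57.1) rose from 32.8 to 47.3 FPKM. Its chromosome 7 copy (arahy.CKCA5J.1) fell from 38.6 to 34.1 FPKM.

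Central respiration leaned upward. Of 130 tested genes of the mitochondrial respiratory chain 59 were higher and 5 lower, and of 105 tricarboxylic acid cycle genes 43 were higher and 10 lower, mostly by little, as the medians were 0.16 and 0.12 on the log2 scale against 0.07 for all genes. Median-ratio scaling reduced the counts to 36 against 11 and 25 against 17. A complex I subunit (arahy.N39QDT.1) rose from 34.6 ± 0.982 to 58.4 ± 2.67 FPKM and cytosolic malate dehydrogenase (arahy.C0P1UQ.1) from 6.48 ± 0.641 to 15.1 ± 1.16 FPKM. Glycolysis genes, with 30 higher and 19 lower of 119, turned to 14 against 24 under median-ratio scaling.

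Genes of proline metabolism moved in opposite directions at the synthesis enzyme and the breakdown enzyme that were counted. Delta-1-pyrroline-5-carboxylate synthase catalyses the committed step of proline synthesis from glutamate, and 4 of its 6 genes fell by at least 2-fold while 2 were not called. The gene arahy.WS4P7I.3 on chromosome 12 read 19.35, 18.32 and 18.96 FPKM in the wild type and 3.75, 3.49 and 3.93 FPKM in the mutant, a 5.07-fold difference (adjusted p = 1.72e-12). Proline dehydrogenase, which degrades proline in mitochondria, rose at 4 of 4 genes with log2 changes of 0.84 to 1.61. The gene arahy.F4PGJ6.1 on chromosome 20 read 6.89, 6.77 and 7.25 FPKM against 22.43, 24.08 and 23.57 FPKM (adjusted p = 6.09e-12). Neither family had overlapping groups at a called gene, and the calls kept their direction under each scaling. Inositol oxygenase, which oxidises myo-inositol to glucuronate for wall sugars, rose at 5 of 6 tested genes, with inositol oxygenase 2 (arahy.Z1CJI9.1) at 2.32, 1.89 and 2.41 FPKM against 9.19, 8.42 and 7.85 FPKM. These 3 families were chosen after their values were seen.

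In nitrogen assimilation 18 of 64 tested genes were higher and 18 lower (13 against 20 under median-ratio scaling). All 3 that were called and changed at least 2-fold on the log2(FPKM + 1) scale fell. Nitrate reductase, the entry enzyme for nitrate, fell at both tested genes, with arahy.7L21K7.1 at 36.63, 37.96 and 39.47 FPKM in the wild type against 14.88, 14.74 and 15.32 FPKM in the mutant. An asparagine synthetase (arahy.2KW6XR.1), which stores nitrogen as an amide for transport, read 159.31, 154.60 and 159.34 FPKM in the wild type and 73.04, 74.36 and 77.19 FPKM in the mutant. Of 11 tested asparagine synthetase entries 4 were lower and 3 higher. A glutamine synthetase nodule isozyme (arahy.0KDC5W.1), which fixes ammonium, rose from 189 ± 9.01 to 290 ± 7.32 FPKM, and an asparaginase (arahy.CFM630.1), which releases ammonium, rose from 2.56 to 5.46 FPKM.

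Several lists of specialised metabolism leaned downward. Cytochromes P450 had 20 genes higher and 39 lower of 151, glutathione S-transferases 10 and 20 of 79, and phenylpropanoid and lignin enzymes 18 and 29 of 123, each with more lower than higher calls under every scaling. Cinnamoyl-CoA reductase 1 (arahy.I8IQWM.1), an enzyme of monolignol synthesis, read 468.77, 496.61 and 475.27 FPKM in the wild type and 213.81, 215.74 and 214.79 FPKM in the mutant (adjusted p = 5.54e-09). Dirigent protein 21 genes, of a family that guides phenolic coupling, fell from 44.7 ± 1.44 to 16.6 ± 1.69 FPKM (arahy.F6GGDR.1) and from 103 ± 2.26 to 43.4 ± 0.651 FPKM (arahy.1UCA9V.1). The dirigent family as a whole was evenly split, with 3 genes higher, 3 lower and 12 not called of 18. A terpene synthase 10-like gene (arahy.BCXY77.1) fell from 14.5 ± 0.426 to 2.64 ± 0.238 FPKM, whereas terpene synthase 2 (arahy.SL9E5P.1) rose from 5.61 to 12.7 FPKM. In the flavonoid list, with 20 genes in each direction of 91 and 16 against 27 under median-ratio scaling, an anthocyanidin glucosyltransferase (arahy.6J67DK.1) fell from 20.7 ± 1.10 to 3.34 ± 0.705 FPKM.

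Proteinase inhibitors fell as a family, and 3 single protease genes rose. Kunitz and Bowman-Birk inhibitors, which block digestive and endogenous serine proteases, fell at 10 of 12 tested genes and rose at none, with a median log2 of -1.14, and the same 10 and 0 were counted under each scaling. The gene annotated as factor Xa inhibitor BuXI-like (arahy.Q36S6K.1) read 259.97, 272.06 and 287.09 FPKM in the wild type and 45.54, 38.79 and 41.47 FPKM in the mutant, a 6.51-fold difference (adjusted p = 1.46e-14). Bowman-Birk inhibitor B-II (arahy.A9Z54Y.1) fell from 187 ± 2.84 to 44.9 ± 0.787 FPKM. Among proteases, for which no list was counted, 2 vacuolar-processing enzyme genes, cysteine proteases that mature vacuolar proteins, rose from 3.76 ± 0.278 to 23.5 ± 1.24 FPKM (arahy.D4D0YI.1) and from 3.30 ± 0.298 to 19.4 ± 1.09 FPKM (arahy.N099DK.1). Serine carboxypeptidase-like 31 (arahy.LX0UPC.1) rose 8.12-fold, from 0.97, 0.85 and 0.47 FPKM to 5.82, 6.65 and 6.13 FPKM. The inhibitor family was picked after its values were seen, and the proteases by the size of their change.

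**Figure D4:**
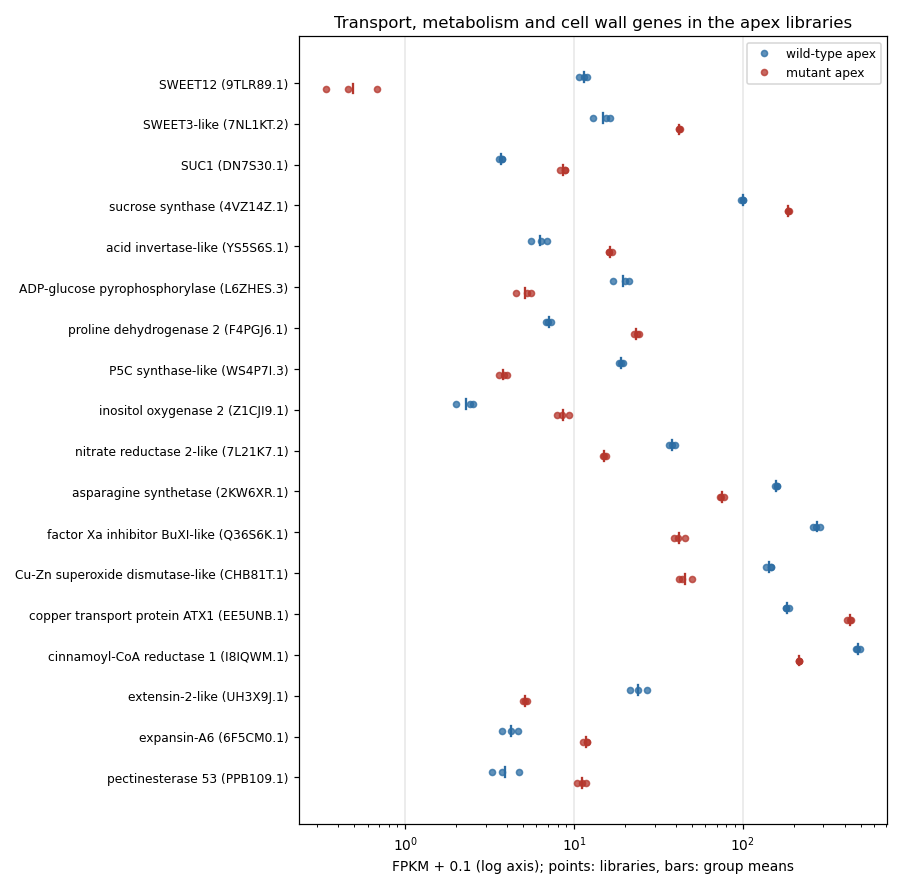
FPKM plus 0.1 in each apex library on a log axis for 18 genes of transport, metabolism and the cell wall, with points for single libraries and short bars for the group means (n = 3). The wild-type and mutant libraries are separated for every gene shown. This was a condition for genes named by rule, and it held for 34.1% of all tested genes together with a call. SWEET12, the proteinase inhibitor and the delta-1-pyrroline-5-carboxylate synthase gene fell, and SWEET3, proline dehydrogenase and inositol oxygenase rose.

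Wall proteins and wall enzymes moved differently. Extensins are hydroxyproline-rich structural proteins that cross-link in the wall, and 9 of 9 tested extensin genes (chosen as a group after their values were seen) fell. The size depends on wild-type replicate 3: the extensin-like gene EPR1 (arahy.PL92CA.1) read 2456.34, 2377.28 and 1496.41 FPKM in the wild type and 954.38, 904.84 and 940.03 FPKM in the mutant. The mutant libraries lay below all 3 wild-type libraries, with a log2 change of -1.14 (adjusted p = 0.000374) that became -1.37 without replicate 3. Extensin-3 (arahy.5H31LD.1), the most abundant of them, read 6987.82, 7228.23 and 4475.62 FPKM against 4312.35, 4048.27 and 3969.50 FPKM (log2 -0.57, adjusted p = 0.00744). Its log2 change was -0.79 without replicate 3, only -0.12 against replicate 3 alone, and turned to 0.14 under quantile normalization. An extensin-2-like gene that replicate 3 did not lower (arahy.UH3X9J.1) read 23.87, 21.26 and 26.88 FPKM against 5.17, 5.06 and 4.86 FPKM.

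Across the list of 108 extensins, proline-rich and arabinogalactan proteins 25 genes were higher and 32 lower, with 4 and 9 past 2-fold. Outside the segments 2 of the 4 remained, since fasciclin-like arabinogalactan proteins 2 and 7 lie in the chromosome 17 segment. Early nodulin-75-like (arahy.SVQ92W.1), a proline-rich wall protein first described in nodules, fell from 62.9 ± 3.28 to 7.58 ± 0.822 FPKM, and its relative arahy.JCK56G.1 fell from 72.3 ± 2.13 FPKM by a log2 change of -2.62. Both are counted in the root and nodule marker list, of which 5 of 69 tested genes were higher and 17 lower, with a summed level of 563 to 574 FPKM in the wild-type and 416 to 422 FPKM in the mutant apex libraries.

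Of the lists of enzymes that loosen or cut the wall, 3 leaned upward and 2 lay near the shares of all genes. Expansins, which loosen the contact of cellulose and xyloglucan, had 19 genes higher and 5 lower of 43. Expansin-A6 (arahy.6F5CM0.1) read 4.59, 4.13 and 3.67 FPKM in the wild type and 11.14, 11.88 and 11.91 FPKM in the mutant (adjusted p = 1.22e-07), and expansin-A15-like (arahy.VRRB4A.1) rose from 19.0 ± 0.721 to 35.0 ± 0.482 FPKM. Polygalacturonases and pectate lyases, which cut pectin, had 30 higher and 10 lower of 68, and pectate lyase 8 (arahy.9P32AD.1) rose from 23.8 ± 0.968 to 42.3 ± 2.96 FPKM. Glucanases and wall glycosidases had 60 higher and 13 lower of 161, among them mannanase 7 (arahy.8QL644.1), from 35.4 ± 1.63 to 63.9 ± 3.44 FPKM. For these 3 lists the higher calls outnumbered the lower under quantile and median-ratio scaling, where glucanases gave 43 against 28. Xyloglucan endotransglucosylases, which cut and rejoin xyloglucan, had 9 higher and 6 lower of 37, and 8 in each direction under median-ratio scaling. Pectin methylesterases and their inhibitors had 23 higher and 14 lower of 94, and 18 against 17 under that scaling. In that list 2 pectinesterase 53 genes, which de-esterify pectin, rose from 4.60, 3.18 and 3.64 FPKM to 11.62, 11.06 and 10.37 FPKM (arahy.PPB109.1) and from 3.14 ± 0.553 to 7.06 ± 0.299 FPKM (arahy.B0YTQL.1).

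Wall synthesis gave a mixed picture. Genes of xylan and other hemicellulose synthesis had 30 higher and 5 lower of 101, and 13 against 8 under median-ratio scaling. These are 29.7% and 4.95%, against 23.7% and 11.9% of all tested genes. The median log2 was 0.11, against 0.07 for all genes. Cellulose synthases and synthase-like genes had 17 higher and 16 lower of 73 (12 against 27 under median-ratio scaling), and 14 in each direction of 68 outside the segments, where none changed 2-fold in either direction. Laccases, which polymerise lignin, fell at 7 of 23 tested genes (6 of 22 outside the segments) and rose at none, with laccase-15-like (arahy.STP0AL.1) at 5.95 against 3.71 FPKM. Xylem and fibre markers, a list that includes the laccases, summed to 71.0 to 74.4 FPKM in the wild-type and 67.0 to 69.7 FPKM in the mutant apex libraries.

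**Figure D5:**
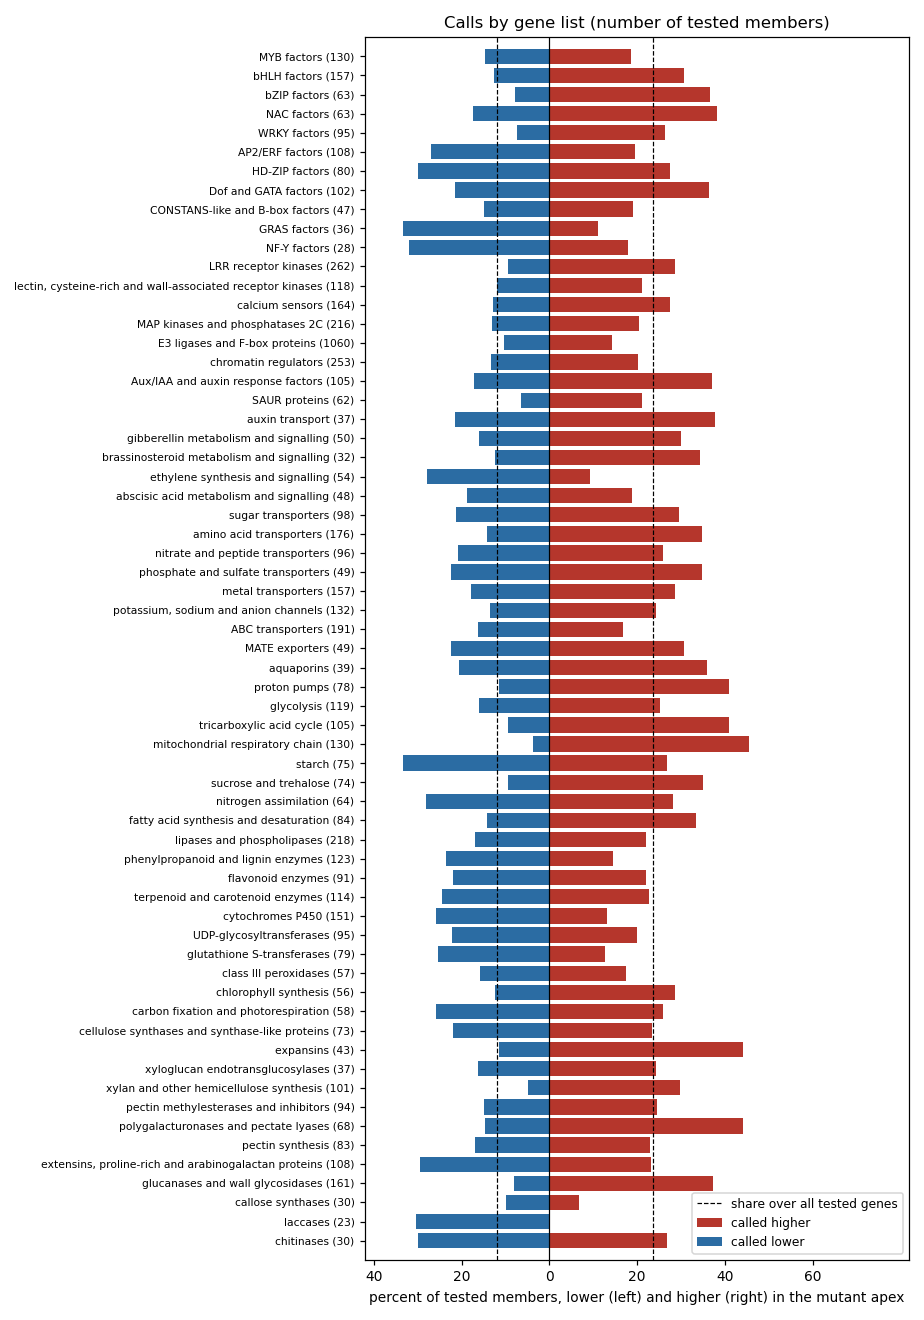
Percent of tested members called higher (right) and lower (left) in the mutant apex for 63 lists of regulators, hormones, transporters, metabolism and the cell wall, with the tested number in brackets and dashed lines at the shares of all tested genes (23.7% and 11.9%). The respiratory chain and expansins exceed the upward line most and GRAS factors and starch lie far past the downward line, while for 19 of all 72 lists, markers included, the larger direction turned under quantile or median-ratio scaling.

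Marker lists of other tissues moved beside these results. Phloem markers had 31 genes higher and 5 lower of 45, and their sum went from 477 to 485 FPKM in the wild-type to 830 to 851 FPKM in the mutant apex libraries, above the 383 to 387 FPKM of the petiole. Epidermis and guard cell markers had 4 higher and 29 lower of 80, with sums of 1660 to 1770 FPKM against 1340 to 1370 FPKM, and protodermal factor 1 (arahy.UWZ29M.1), an epidermal marker, fell from 331 ± 11.8 to 219 ± 5.90 FPKM. Leaf blade markers had 33 higher and 3 lower of 52, with sums of 7190 to 7580 FPKM against 8020 to 8280 FPKM and 27700 to 35200 FPKM in leaflets. Seed markers summed to 32.6 to 36.8 FPKM in the wild-type and 17.5 to 18.7 FPKM in the mutant, and flower markers to 143 to 153 FPKM and 142 to 147 FPKM. Only 4 of the 24 listed seed markers were tested, with 2 lower and 0 higher, so that sum rests on few genes. Of 23 tested flower markers 5 were higher and 4 lower. The part of these marker shifts in the transport, metabolism and wall results was not tested.

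Few genes outside the segments switched between presence and absence. By locus, 16 genes averaged at least 2 FPKM in wild-type apex but under 0.1 FPKM in the mutant, and 10 of them were listed at 0 in all 3 mutant libraries. The chromosome 5 segment alone held 53 such genes among its 106 at 2 FPKM or more. Beside the splicing factor U2af large subunit A (arahy.272FN3.2), from 32.6 ± 1.58 to 0.02 ± 0.0173 FPKM, the 16 include the NAC2 gene described above, a further NAC2 gene (arahy.VCF3H0.1, 3.28 ± 0.413 FPKM in the wild type) and berberine bridge enzyme-like 13 (arahy.S5HTEX.1, 2.23 ± 0.584 FPKM), both listed at 0 in each mutant library. For 1 of the 16 the level came almost wholly from 1 wild-type library and for another from 2, and neither was called. In the other direction 5 genes averaged at least 2 FPKM in the mutant and under 0.1 FPKM in the wild type, of which arahy.KBV6L0.1, a hypothetical protein, was the only one above 3 FPKM in each mutant library, at 5.60, 5.73 and 4.43 FPKM. These genes were selected on their values, and no test is drawn from their number.

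The levels of the genes changed at least 2-fold outside the segments were also read in the other wild-type organs. Of the 319 that fell, 72.1% reached 1 FPKM in the wild-type petiole and 67.4% in the leaflets, and of the 193 that rose 79.3% and 64.2% did, while 87.7% and 90.7% of all tested genes outside the segments did. These shares were not tested against each other, since a gene could enter the test through its level in the apex or in the other organs. Their median level was 8.32 FPKM in the wild-type and 2.14 FPKM in the mutant apex for the falls, and 2.85 and 7.58 FPKM for the rises. Named products were available for 247 of the falls and 148 of the rises.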

How the data were processed

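RNA was extracted with TRIzol reagent, reverse transcribed from random primers and sequenced on an Illumina or another instrument, per the labels' protocols; strandedness was not stated. The deposited file gives FPKM per gene and library, per the file headers, with each column repeated with identical values. It also holds the authors' log2 ratios and the authors' p-values and q-values of pairwise comparisons, whose test is not named and which were not used. No source used here names the aligner or counter. TAIR 10 is the build in the submitters' processing notes, whereas gene names and chromosomes are those of peanut. No per-sample column was left without a sample (0 columns).

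All 15 libraries entered 1 limma 3.58.1 model (R 4.3.3; trend, robust) on log2(FPKM + 1) with a mean per group, restricted to genes with 3 or more libraries reaching 1 FPKM, and the contrast was mutant minus wild-type apex. Log2 changes carry this pseudocount, which understates those of low genes, and FPKM gives no read counts, so no count model was run. Tested on simulated data, the fit recovered 100% of genes changed 2-fold or 4-fold and 76.5% of those changed 1.5-fold, and called 0.0336% of the unchanged. In that simulation 200 genes were changed, all at 2 FPKM or more in wild-type apex. It used a fixed dispersion and no scaling shift between the groups. Its rates therefore do not cover lower genes, other spreads or such a shift. Alternatives were a pseudocount of 0.1, no filter, a 5 FPKM filter, quantile, median-ratio and TPM scaling, apex libraries only, a replicate block, no trend, leaving out the 2 segments, leaving out each apex library in turn and, added after the data were seen, 1 entry per locus. Counts of calls were made in Python 3.11.15 with pandas 2.3.3.

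The comparison, segments and lists were chosen with earlier results of these data known. Named genes outside the segments are the 12 largest rises and 12 largest falls (at least 5 FPKM in the higher group, groups not overlapping, named product, 1 per product), 4 per segment, up to 3 per direction in each list (at least 2 FPKM) and the highest member of each marker list; a part of them is printed, and families said to be picked after their values were seen fall outside this rule. Values of near-identical copies are uncertain where reads could be split between them. Same-numbered replicates showed no shared deviation (correlations of -0.0126, -0.0258 and 0.0176), so the numbers do not pair the libraries.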

Additional observations from a re-analysis of the deposited data

How the results depend on the processing

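Gene counts kept within 1.5 times of the reported values in most settings. Median-ratio scaling gave 5563 genes higher and 7066 lower, and a pseudocount of 0.1 gave 694 genes at least 2-fold higher and 750 lower, since it widens the changes of low genes. Leaving out 1 apex library gave 7667 to 8240 genes higher, 3930 to 4049 lower, 225 to 276 at least 2-fold higher and 389 to 439 at least 2-fold lower. With the replicate block, which the numbering does not support as a pairing, 9021 genes were higher and 4508 lower (247 and 422 at 2-fold). Counting 1 entry per locus, a choice made after seeing the data, gave 8973 and 4476. The log2 changes of 2 genes turned, both under quantile normalization, the cause being untested: extensin-3 (arahy.5H31LD.1) at 0.14, and the leaf blade marker chlorophyll a-b binding protein of LHCII type 1 (arahy.QXM1B7.1), not called at -0.01, at 0.33. Of 629 genes followed through the settings, 37 lost their call with a pseudocount of 0.1, 19 under median-ratio scaling, 13 under quantile normalization and 21 to 27 when 1 apex library was left out. Precision is limited by 3 libraries a group and by values given as FPKM without counts.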
